A study of Homo sapiens with 8 samples.

Results

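The genes described here are 42 named genes of the lysosome and of autophagy, and all 42 were found among the 25702 genes counted in RNA-seq of SUIT2 cells. They were chosen by name: 3 transcription factors of the MiT/TFE family, 12 hydrolases and activators of the lysosomal lumen, 7 membrane proteins and lipid exporters, 5 subunits of the vacuolar proton pump, 5 genes of the ATG8 family and its receptor, 5 of autophagy initiation and 5 of the conjugation machinery. SUIT2 is a human pancreatic ductal adenocarcinoma (PDA) cell line. The cells carried a lentiviral pLKO.1 puro vector with either a scramble shRNA (shScr, 4 libraries) or 1 of 2 independent shRNA constructs against the homeobox transcription factor gene *EN1* (shEN1 #1, 2 libraries, and shEN1 #2, 2 libraries), and transduced cells were selected with puromycin. The comparison asked how gene expression differed after depletion of EN1. Nothing in the labels says whether the libraries of a group came from separate cultures or separate transductions.

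Lysosomes are acidified by the vacuolar H+-ATPase and hold hydrolases that degrade material delivered by endocytosis and by autophagy, in which a double membrane closes around cytoplasm and fuses with the lysosome. The factors TFEB, TFE3 and MITF bind a shared promoter element and drive many of these genes when they enter the nucleus, a step set by mTORC1 at the lysosomal surface that RNA levels do not measure. PDA cells are known for high autophagy and for nuclear MiT/TFE factors, and they use the lysosome as a source of amino acids when nutrients are scarce.

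Levels are given in CPM (read counts scaled to a common library size), where the library size was normalised with edgeR's TMM factors, and the 8 values of a gene are given for shScr replicates 1 to 4, then shEN1 #1 replicates 1 and 2, then shEN1 #2 replicates 1 and 2. The library totals lay between 33423590 and 37810604 counts. On the first principal component, which held 44.4% of the variance of all tested genes, shScr replicate 4 (59.2) and shEN1 #2 replicate 1 (62.1) lay far from the other 6 libraries (-27.6 to -9.15). On the second, which held 17.5%, shScr replicate 3 (-39.3) and shEN1 #1 replicate 1 (-30.6) lay below the rest. The shScr libraries held 4.10, 4.50, 4.93 and 2.51 CPM of *EN1*, those of shEN1 #1 5.77 and 5.41 CPM and those of shEN1 #2 1.35 and 6.70 CPM. The targeted transcript was therefore lower than every shScr library in shEN1 #2 replicate 1 and higher than every shScr library in the other 3 shEN1 libraries, with a log2 fold change of 0.26 (SE 0.43, 95% interval -0.70 to 1.22). That value was 0.57 without shEN1 #2 replicate 1, 0.057 without shEN1 #2 replicate 2 and 0.040 with limma-voom. *EN1* had between 53 and 218 counts per library. Since its RNA was not lower in 3 of the 4 shEN1 libraries, shEN1 and shScr below name libraries by their label, and every direction is that between the labels. All 6 epithelial and ductal markers exceeded 1 CPM and summed to between 11436 and 18540 CPM. Markers of other cells were near 0, with 1 of 6 for fibroblasts, 1 of 6 for leukocytes and 0 of 4 for endothelial cells above 1 CPM, and sums of at most 4.22 CPM in any library.

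None of the lysosome and autophagy genes passed the test between the libraries labelled shEN1 and shScr. Of the 42 genes 41 passed the filter on low counts, and by edgeR's quasi-likelihood test 0 of these 41 had a Benjamini-Hochberg adjusted p below 0.05, where the share over all 14333 tested genes was also 0.0%. An unadjusted p below 0.05 was reached by 0 of 41 members and by 0.307% of all tested genes, and 0 of 41 had shEN1 and shScr libraries that did not overlap, against 0.419% of all tested genes. The smallest unadjusted p of a member was 0.146, and every member's adjusted p was 1.00 in edgeR's fit across all genes. DESeq2 and limma-voom also gave 0 of 41 members with an adjusted p below 0.05. Of the 41 genes 13 had a higher and 28 a lower estimate in shEN1, so that 31.7% were higher, compared with 48.9% of all tested genes. That count was 19 without shEN1 #1 replicate 2, 11 without shScr replicate 2 and 21 in a fit of 4 libraries described below. The median log2 fold change of the members was -0.051, that of all tested genes was -0.0028, and the members ranged from -0.37 (*TFEB*) to 0.31 (*MCOLN1*).

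The intervals of this fit, taken at their nominal level, bounded most of these differences. At an unadjusted p below 0.05 edgeR called 0.307% of all tested genes, less than that threshold gives by definition where nothing differs. In the fit of 4 libraries described below it called 10.6%. The p-values and intervals may therefore not hold their nominal level. The 95% interval of the fold change lay within 2-fold in either direction for 38 of the 41 genes (92.7%, compared with 78.3% of all tested genes), the exceptions being *TFEB*, *MITF* and *GABARAPL1*. It lay within 1.5-fold for 32 genes (78.0%, compared with 58.3%). The members were more abundant than the average tested gene, with a median level of 65.8 CPM against 23.3 CPM. A p-value here measures the spread between these libraries, which may be technical, and a lower level could mean fewer expressing cells or less RNA per cell, which cannot be told apart in bulk RNA.

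**Figure D1:**
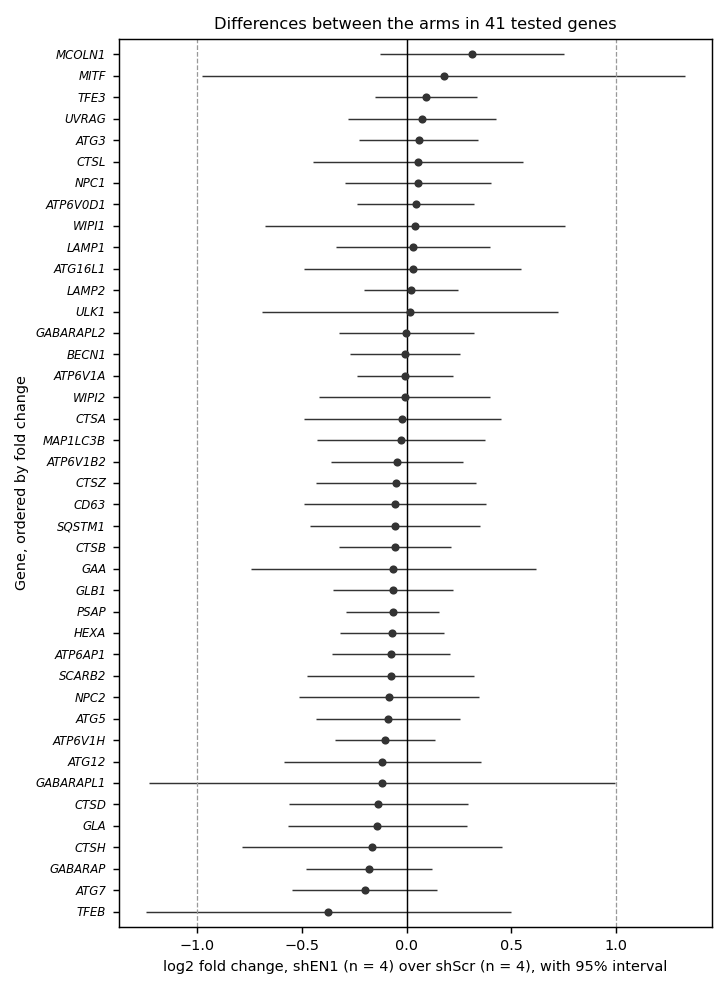
Log2 fold change (horizontal axis) of each of the 41 tested genes (vertical axis, ordered by fold change) between 4 libraries labelled shEN1 and 4 labelled shScr, with points for edgeR's estimate, bars for its 95% interval and dashed lines at a 2-fold difference. Every interval includes 0, and only those of *TFEB*, *MITF* and *GABARAPL1* extend past a 2-fold difference.

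The promoters of several members carry a sequence that MiT/TFE factors are known to bind. The 5 that hold it before the start are shown, since its place and number of copies differ between them. RefSeq promoter windows (GRCh38.p14, 250 bases before to 50 after a start) were at hand for 34 of the 42 members. The 8-letter palindrome TCACGTGA, which reads the same on both strands and contains the E-box CACGTG, was found in 6 of these 34 (17.6%), compared with 1.18% of 27305 genes with a window and 2.21% of the 10915 of them that were tested. The shorter CACGTG was found in 9 of 34 members (26.5%), compared with 8.77% of all and 12.5% of tested genes. Lysosomal genes were among those from which this element was first defined, so its share in them is background. The carriers were *LAMP1*, *ATP6V0D1*, *GAA*, *MCOLN1*, *CTSA* and *ATG3*, in the last of which the palindrome lies just after the start. The 100 bases before the start are given 5′ to 3′ on the gene's strand, with the palindrome in capitals.
*LAMP1* (chr13:113297139-113297238, plus strand): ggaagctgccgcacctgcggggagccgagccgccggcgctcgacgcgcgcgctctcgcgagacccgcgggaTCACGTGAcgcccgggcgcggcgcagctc
*ATP6V0D1* (chr16:67481158-67481257, minus strand): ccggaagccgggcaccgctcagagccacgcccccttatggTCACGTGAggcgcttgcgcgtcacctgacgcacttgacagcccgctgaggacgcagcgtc
*GAA* (chr17:80101481-80101580, plus strand): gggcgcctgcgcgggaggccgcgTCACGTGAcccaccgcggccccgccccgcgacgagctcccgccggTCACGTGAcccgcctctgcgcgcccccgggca
*MCOLN1* (chr19:7522524-7522623, plus strand): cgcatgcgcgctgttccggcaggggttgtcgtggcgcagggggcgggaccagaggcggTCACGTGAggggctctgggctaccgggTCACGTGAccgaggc
*CTSA* (chr20:45891235-45891334, plus strand): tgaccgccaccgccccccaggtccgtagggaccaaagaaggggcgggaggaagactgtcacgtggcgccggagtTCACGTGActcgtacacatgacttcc
The palindrome begins 29 bases before the start in *LAMP1*, 60 in *ATP6V0D1* and 26 in *CTSA*. *GAA* holds 2 copies, beginning 77 and 32 bases before the start, and *MCOLN1* holds 2, beginning 42 and 15 bases before it. A match is a description of the letters and not a measure of binding.

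Among the transcription factors, TFE3 was by far the most abundant. Per kilobase of transcript *TFE3* averaged 25.3 CPM, *TFEB* 1.40 CPM and *MITF* 0.372 CPM. The ranges of *TFE3* (21.5 to 28.9 CPM per kb) and *TFEB* (0.697 to 2.75 CPM per kb) did not overlap, whereas the lowest *TFEB* library was level with the highest *MITF* library (0.704 CPM per kb). For *TFE3* the values were 85.6, 70.9, 86.1 and 79.5 CPM in shScr, 85.7 and 95.2 CPM in shEN1 #1, and 84.5 and 77.9 CPM in shEN1 #2. The libraries of both labels overlapped, and the log2 fold change was 0.092 (SE 0.11, 95% interval -0.15 to 0.34). *TFEB* measured 3.58, 2.80, 6.43 and 1.97 CPM in shScr, compared with 2.88 and 3.59 CPM in shEN1 #1 and 1.62 and 3.32 CPM in shEN1 #2. The highest value was in shScr replicate 3 and the lowest in shEN1 #2 replicate 1, and the log2 fold change of *TFEB* (chr6:41651716-41703997, GRCh37) was -0.37 (SE 0.39, 95% interval -1.24 to 0.50), the largest of any member in size. All 4 shEN1 libraries lay below the shScr mean of 3.70 ± 1.93 CPM (SD, n = 4), 3 of them within the range of the shScr libraries and shEN1 #2 replicate 1 below it, and without shScr replicate 3 the fold change was 0.033. Expression of *MITF* was 1.11, 1.54, 0.803 and 3.26 CPM in shScr, 1.79 and 1.53 CPM in shEN1 #1 and 3.38 and 0.891 CPM in shEN1 #2. *MITF*, the family member known from melanocytes, was thus highest in shScr replicate 4 and shEN1 #2 replicate 1, the libraries in which *TFEB* was lowest. These values rest on between 28 and 133 counts per library for *MITF* and between 64 and 224 for *TFEB*.

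**Figure D2:**
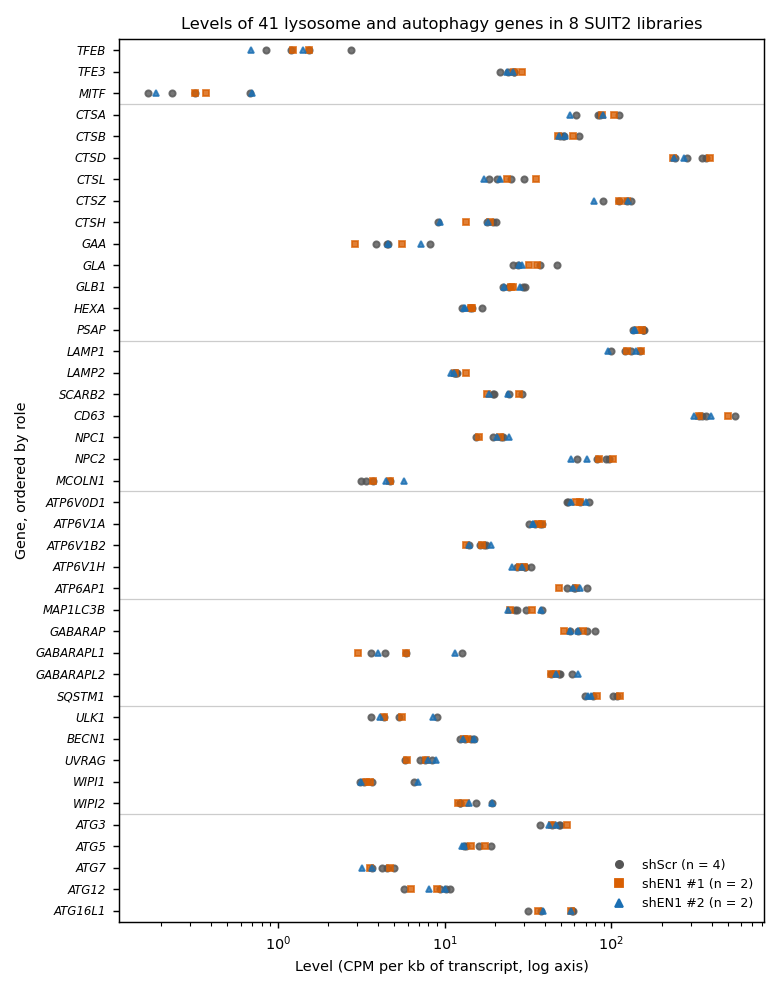
Level in CPM per kb of transcript (horizontal log axis) of each of the 41 tested genes (vertical axis, grouped by role) in each library, with circles for shScr (n = 4), squares for shEN1 #1 (n = 2) and triangles for shEN1 #2 (n = 2). *CD63* and *CTSD* are the highest and *MITF* the lowest, and the range of the shScr libraries overlaps that of the shEN1 libraries in every row.

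The hydrolases were led by cathepsin D. The 11 tested genes of this group averaged between 19.5 and 610.0 CPM, with 1 estimate higher and 10 lower in shEN1 and a median log2 fold change of -0.065, and none passed the test. When the 4 libraries far out on either component were left out, 7 of the 11 were higher, and 4 were higher without shScr replicate 3 alone. The summed level of the group was 1857 ± 219.8 CPM in shScr and 1752 ± 206 CPM in shEN1 (SD, n = 4 each). *CTSD* was at 717, 497, 754 and 586 CPM in the 4 shScr libraries, 479.9 and 799 CPM in shEN1 #1 and 488 and 559 CPM in shEN1 #2. This aspartic protease was high in shScr replicates 1 and 3 and in shEN1 #1 replicate 2, so the labels overlapped and the log2 fold change was -0.14 (SE 0.19, 95% interval -0.56 to 0.29). The shScr libraries held 190.1, 184, 238 and 194 CPM of *CTSB*, those of shEN1 #1 219 and 179 CPM and those of shEN1 #2 181 and 196 CPM. *CTSB* encodes the abundant cysteine protease cathepsin B, and its libraries differed by at most 1.33-fold, with a log2 fold change of -0.057 (SE 0.12, 95% interval -0.32 to 0.21). For *CTSL* the values were 41.2, 30.7, 49.5 and 34.1 CPM in shScr, 58.2 and 39.2 CPM in shEN1 #1, and 35.7 and 28.4 CPM in shEN1 #2. *CTSL*, another cysteine protease, was highest in shEN1 #1 replicate 1 and lowest in shEN1 #2 replicate 2, with a log2 fold change of 0.056 (SE 0.23, 95% interval -0.44 to 0.56). The estimates of the 2 constructs lay on opposite sides of shScr, with log2 fold changes of 0.33 for shEN1 #1 and -0.28 for shEN1 #2, and neither difference reached an unadjusted p of 0.05.

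*GAA* measured 17, 14.6, 17.1 and 30.8 CPM in shScr, compared with 10.9 and 20.9 CPM in shEN1 #1 and 27.2 and 17.2 CPM in shEN1 #2. *GAA*, the acid glucosidase that degrades glycogen, was therefore higher in shScr replicate 4 and shEN1 #2 replicate 1 than in any other library. Expression of *CTSH* was 41.7, 43.6, 38.6 and 19.7 CPM in shScr, 28.8 and 39.9 CPM in shEN1 #1 and 20.3 and 39.3 CPM in shEN1 #2. *CTSH*, a cysteine aminopeptidase, had the reverse order, with its 2 lowest values in those libraries. *PSAP*, the precursor of the saposins that present lipids to hydrolases, was the steadiest member, between 371 and 428 CPM. *CTSA*, the protective protein of the neuraminidase and galactosidase complex, ranged from 105 to 207 CPM and *CTSZ*, a carboxypeptidase, from 119 to 198 CPM, each lowest in shEN1 #2 replicate 1. The glycosidases *GLA*, *GLB1* and *HEXA* ranged from 33.8 to 62.1 CPM, from 56.9 to 76.6 CPM and from 61.1 to 79.9 CPM. The highest value of each of these 3 was in a shScr library.

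*NEU1*, the lysosomal sialidase (chr6:31825436-31830682, GRCh37), was the member that did not pass the filter. It had 2, 2, 7 and 0 counts in shScr and 0 in each shEN1 library. Its neighbours in the major histocompatibility complex were likewise almost uncounted. Of 68 genes in the window of 500 kb on each side, *NEU1* itself included, 62 averaged under 1 CPM and the highest average was 7.91 CPM. Of the genes in this window 14.7% were tested, compared with 59.7% of all genes with a position. Genes used in most cells lie there, such as *CSNK2B*, a subunit of casein kinase, with 0.178 to 0.532 CPM, and *CLIC1*, a chloride channel protein, with 0.181 to 0.539 CPM. The cause was not tested, and the counts of *NEU1* cannot be read as its absence from these cells.

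The membrane proteins and lipid exporters were split in direction, with 4 estimates higher and 3 lower in shEN1 among 7 tested and a median log2 fold change of 0.022. *LAMP1* was at 355, 326, 398 and 267 CPM in the 4 shScr libraries, 334 and 407 CPM in shEN1 #1 and 258 and 377 CPM in shEN1 #2. *LAMP1*, a major glycoprotein of the lysosomal membrane, was lowest in shScr replicate 4 and shEN1 #2 replicate 1, and the log2 fold change was 0.03 (SE 0.17, 95% interval -0.34 to 0.40). The shScr libraries held 74.9, 77.1, 75.6 and 76.3 CPM of *LAMP2*, those of shEN1 #1 87.7 and 75.0 CPM and those of shEN1 #2 74.9 and 71.0 CPM. Its relative *LAMP2*, needed for chaperone-mediated autophagy and for fusion, was among the steadiest members, differing by at most 1.23-fold between libraries. Its SD was 0.936 CPM over the 4 shScr libraries and 7.26 CPM over the 4 shEN1 libraries. The log2 fold change of *LAMP2* was 0.022 (SE 0.10, 95% interval -0.20 to 0.25). For *NPC1* the values were 104, 93, 73.4 and 107 CPM in shScr, 76.2 and 102 CPM in shEN1 #1, and 116 and 98.0 CPM in shEN1 #2. *NPC1* exports cholesterol from the lysosome together with NPC2, and its log2 fold change was 0.056 (SE 0.16, 95% interval -0.29 to 0.40).

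*NPC2* measured 76.5, 67.7, 79.2 and 51.3 CPM in shScr, compared with 84.3 and 69.1 CPM in shEN1 #1 and 46.9 and 58.8 CPM in shEN1 #2. *NPC2*, the soluble partner, had the smallest p of a member between the constructs. It had a log2 fold change of -0.54 in shEN1 #2 relative to shEN1 #1, with an unadjusted p of 0.0445 in edgeR's fit across all genes and an adjusted p of 1.00. It was the only 1 of 41 members below that unadjusted threshold between the constructs (all tested genes 1.17%). Per kilobase *CD63*, a tetraspanin of late endosomes, was the most abundant member, with a mean of 393 CPM per kb. Expression of *CD63* was 341, 355, 563 and 379 CPM in shScr, 513 and 342 CPM in shEN1 #1 and 320.2 and 402 CPM in shEN1 #2. Its highest value was in shScr replicate 3 and the next in shEN1 #1 replicate 1. *SCARB2*, the receptor that carries glucocerebrosidase to lysosomes, ranged from 83.8 to 137 CPM with its 2 highest values in the same libraries.

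*MCOLN1* was at 6.60, 7.06, 7.77 and 9.82 CPM in the 4 shScr libraries, 7.73 and 9.85 CPM in shEN1 #1 and 11.9 and 9.34 CPM in shEN1 #2. *MCOLN1*, the calcium channel whose release activates TFEB, had the highest estimate among the members, with a log2 fold change of 0.31 (SE 0.20, 95% interval -0.13 to 0.75). Of the 4 shEN1 libraries 3 exceeded the shScr mean of 7.81 ± 1.42 CPM (SD, n = 4), and shEN1 #1 replicate 1 lay just below it. Both constructs gave a higher estimate, with log2 fold changes of 0.17 for shEN1 #1 and 0.44 for shEN1 #2. The direction was the same in every alternative fit, between 0.20 and 0.50 on the log2 scale, and at no setting did the adjusted p fall below 0.452.

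The 5 proton pump subunits varied less between libraries than the other groups. Their summed level was 500.8 ± 20 CPM in shScr and 491 ± 23.6 CPM in shEN1 (SD, n = 4 each), and no subunit differed by more than 1.47-fold between its highest and lowest library. Of the 5 estimates 1 was higher and 4 were lower in shEN1, between -0.10 and 0.044 on the log2 scale, and this split was 3 higher and 2 lower without shEN1 #2 replicate 2 and 0 and 5 without shScr replicate 1. The shScr libraries held 90.3, 88.3, 105 and 119 CPM of *ATP6V0D1*, those of shEN1 #1 105 and 100.6 CPM and those of shEN1 #2 116 and 93.9 CPM. *ATP6V0D1*, of the membrane-embedded sector, was highest in shScr replicate 4 and shEN1 #2 replicate 1, with a log2 fold change of 0.044 (SE 0.13, 95% interval -0.23 to 0.32). The subunits of the catalytic sector, *ATP6V1A*, *ATP6V1B2* and *ATP6V1H*, ranged from 146 to 176 CPM, from 38.4 to 54.5 CPM and from 53.8 to 69.8 CPM. The accessory subunit *ATP6AP1* ranged from 99.99 to 147 CPM. All 4 shEN1 libraries lay below the shScr mean of *ATP6V1H* (64.0 ± 5.08 CPM, SD, n = 4), with overlap between the labels.

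The ATG8 family, which coats the autophagosome membrane, had the member that varied most between libraries. All 5 estimates of this group were lower in shEN1, from -0.18 to -0.0005 on the log2 scale, none passed the test, and 1 of the 5 turned higher with DESeq2's size factors or with library sizes alone, while 4 were higher without shEN1 #2 replicate 2. For *GABARAPL1* the values were 6.84, 8.25, 11 and 24.1 CPM in shScr, 11.1 and 5.68 CPM in shEN1 #1, and 21.9 and 7.49 CPM in shEN1 #2. *GABARAPL1* (chr12:10365057-10375727, GRCh37) was higher in shScr replicate 4 and shEN1 #2 replicate 1 than in any other library, its highest value was 4.24 times its lowest, and its log2 fold change was -0.12 (SE 0.49, 95% interval -1.23 to 0.99). *MAP1LC3B* measured 56.4, 58.0, 65.8 and 82.5 CPM in shScr, compared with 71.6 and 52.8 CPM in shEN1 #1 and 81.4 and 51.7 CPM in shEN1 #2. *MAP1LC3B*, which encodes the LC3B protein commonly used to follow autophagosomes, also had its 2 highest values in those libraries, and its log2 fold change was -0.029 (SE 0.18, 95% interval -0.43 to 0.37). Expression of *GABARAP* was 75.0, 83.5, 105 and 94.1 CPM in shScr, 89.5 and 68.4 CPM in shEN1 #1 and 74.9 and 83.2 CPM in shEN1 #2. *GABARAP* did not follow that order, and its log2 fold change was -0.18 (SE 0.14, 95% interval -0.48 to 0.12), the same to 2 decimals for each construct. *GABARAPL2* ranged from 42 to 61.0 CPM, with its 2 highest values in shEN1 #2 replicate 1 and shScr replicate 4.

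*SQSTM1* was at 305, 197, 289 and 219 CPM in the 4 shScr libraries, 234 and 318 CPM in shEN1 #1 and 206 and 214 CPM in shEN1 #2. *SQSTM1* encodes p62, the receptor that carries ubiquitylated cargo into autophagosomes, and it was the most abundant autophagy gene, with a mean of 87.2 CPM per kb. It was high in shScr replicates 1 and 3 and shEN1 #1 replicate 2, the same libraries as *CTSD*, and its log2 fold change was -0.055 (SE 0.18, 95% interval -0.46 to 0.35).

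Of the 5 initiation genes 4 were highest in the same 2 libraries and 1 hardly varied. The 5 estimates lay between -0.0097 and 0.074 on the log2 scale, 3 higher and 2 lower. All 5 were higher without shEN1 #1 replicate 2, and 1 of 5 without shScr replicate 2 or without shEN1 #2 replicate 1. The shScr libraries held 22.9, 19.4, 28.5 and 47.7 CPM of *ULK1*, those of shEN1 #1 23.1 and 29.4 CPM and those of shEN1 #2 45.5 and 21.7 CPM. *ULK1* (chr12:132379167-132407695, GRCh37), the kinase that starts autophagosome formation, had its 2 highest values in shScr replicate 4 and shEN1 #2 replicate 1, and its log2 fold change was 0.016 (SE 0.32, 95% interval -0.69 to 0.72). For *WIPI1* the values were 6.24, 7.04, 5.91 and 12.5 CPM in shScr, 6.78 and 6.47 CPM in shEN1 #1, and 13.2 and 6.05 CPM in shEN1 #2. *WIPI1*, which binds phosphatidylinositol 3-phosphate on the forming membrane, was separated in the same way, with the other 6 libraries between 5.91 and 7.04 CPM. *WIPI2*, its relative that recruits ATG16L1, ranged from 53.7 to 85.8 CPM with the same 2 libraries highest. *BECN1* measured 31.7, 26.1, 30.2 and 27.9 CPM in shScr, compared with 28.6 and 27.6 CPM in shEN1 #1 and 27.2 and 31.8 CPM in shEN1 #2. *BECN1*, a subunit of the lipid kinase that makes this phospholipid, differed by at most 1.22-fold between libraries and had a log2 fold change of -0.0068 (SE 0.12, 95% interval -0.27 to 0.26). *UVRAG*, which joins BECN1 in that kinase, ranged from 29.6 to 45.2 CPM.

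**Figure D3:**
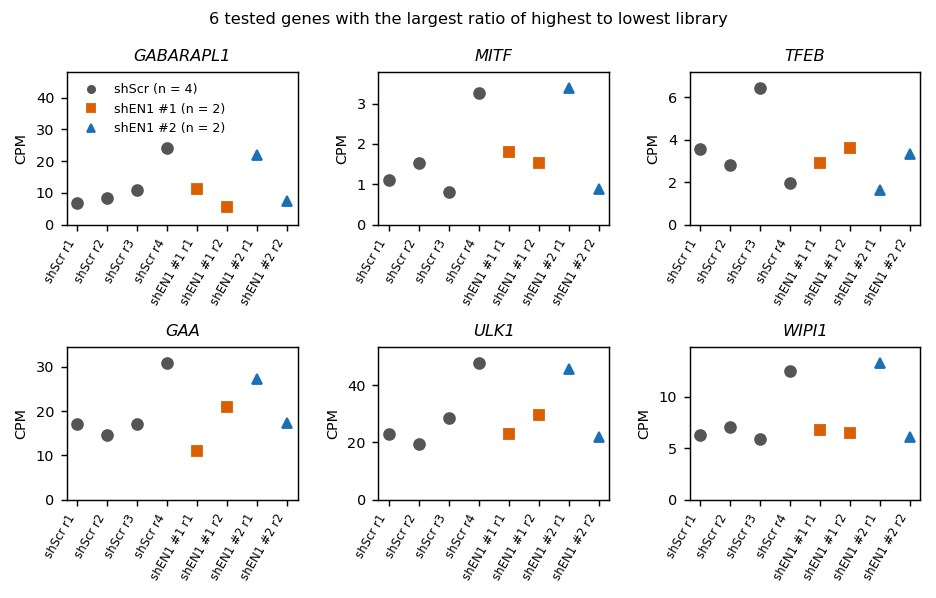
CPM (vertical axes from 0) in each of the 8 libraries (horizontal axes) for the 6 tested members with the largest ratio of highest to lowest library, with circles for shScr, squares for shEN1 #1 and triangles for shEN1 #2. *GABARAPL1*, *MITF*, *GAA*, *ULK1* and *WIPI1* are highest in shScr replicate 4 and shEN1 #2 replicate 1, where *TFEB* is lowest.

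The conjugation genes, which attach ATG8 proteins to lipid, gave 2 higher and 3 lower estimates, between -0.20 and 0.058 on the log2 scale. None of the 5 was higher without shScr replicate 4, and 3 were higher without shScr replicate 2. Expression of *ATG5* was 51.3, 60.2, 41.8 and 42.8 CPM in shScr, 55.8 and 46.2 CPM in shEN1 #1 and 40.5 and 41.9 CPM in shEN1 #2. *ATG5*, part of the complex that acts like a ligase in this step, had a log2 fold change of -0.089 (SE 0.15, 95% interval -0.43 to 0.25). *ATG7* was at 26.5, 24.2, 22.4 and 19.7 CPM in the 4 shScr libraries, 19 and 25 CPM in shEN1 #1 and 17.1 and 19.7 CPM in shEN1 #2. *ATG7*, the enzyme that activates both ATG8 proteins and ATG12, was lowest in shEN1 #2 replicate 1 and had a log2 fold change of -0.20 (SE 0.16, 95% interval -0.55 to 0.15). Of the 4 shEN1 libraries 1 exceeded its shScr mean of 23.2 ± 2.88 CPM (SD, n = 4). *ATG3*, the conjugating enzyme, ranged from 58.1 to 84.5 CPM. The shScr libraries held 191, 193, 105 and 126 CPM of *ATG16L1*, those of shEN1 #1 120.3 and 189 CPM and those of shEN1 #2 129 and 189 CPM. *ATG16L1*, which places the ATG5 complex on the membrane, fell into a high set of 4 libraries (189 to 193 CPM) and a low set of 4 (105 to 129 CPM), each with 2 libraries of either label. *ATG12* ranged from 22.9 to 43.8 CPM with its 2 lowest values in shScr replicate 3 and shEN1 #1 replicate 1.

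The members did not move together as 1 block across the libraries. The pair shScr replicate 4 and shEN1 #2 replicate 1 held the 2 highest values of 13 members (31.7%, compared with 18.8% of all tested genes) and the 2 lowest of 7 (17.1%, compared with 19.2%). The 13 were *MITF*, *GAA*, *NPC1*, *ATP6V0D1*, *ATP6V1B2*, *ATP6AP1*, *MAP1LC3B*, *GABARAPL1*, *GABARAPL2*, *ULK1*, *UVRAG*, *WIPI1* and *WIPI2*. They included 4 of 5 initiation genes, 3 of 5 pump subunits and 1 of 11 tested hydrolases, where the share of all tested genes was 18.8%. The rest were *MAP1LC3B*, *GABARAPL1* and *GABARAPL2* of the ATG8 group, *NPC1* of the membrane group and *MITF*. The conjugation genes were not among them. These small counts by role were taken after the values were seen and were not tested. The 7 were *TFEB*, *CTSA*, *CTSZ*, *CTSH*, *LAMP1*, *NPC2* and *ATG3*. Of the 6 genes with TCACGTGA in the promoter window, *GAA* and *ATP6V0D1* were thus highest in this pair and *LAMP1*, *CTSA* and *ATG3* lowest, while *MCOLN1* was highest in shEN1 #2 replicate 1 and behind shEN1 #1 replicate 2 in shScr replicate 4. Of the 6 epithelial and ductal markers 4 had their 2 lowest values in this pair. *KRT7* was at 198 CPM in shScr replicate 4 and 192 CPM in shEN1 #2 replicate 1 and between 533 and 1079 CPM in the other libraries, and *KRT19* was at 400.1 and 321 CPM against 831 to 1648 CPM. *EPCAM* was at 234 and 241 CPM against 366 to 589 CPM, and *CDH1* at 124 and 103 CPM against 156 to 256 CPM, while *KRT8* and *KRT18* lay within the range of the others. *EN1* also had its 2 lowest values in this pair, as did 19.2% of all tested genes. It was at 2.51 CPM in shScr replicate 4 and 1.35 CPM in shEN1 #2 replicate 1, against 4.10 to 6.70 CPM in the others. The part of these differences in the members' pattern was not tested.

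A second pair had a partly different set of genes. In shScr replicate 3 and shEN1 #1 replicate 1 the 2 highest values were held by 8 members (19.5%, compared with 7.06% of all tested genes), namely *CTSA*, *CTSB*, *CTSL*, *HEXA*, *SCARB2*, *CD63*, *NPC2* and *ATP6V1A*. Of these 7 encode lumenal or membrane proteins of the lysosome, roles already held by 11 hydrolases and 7 membrane proteins and lipid exporters among the 41 tested members. The 2 lowest values of this pair were held by 4 members (9.76%, compared with 6.82%), namely *NPC1*, *UVRAG*, *ATG12* and *ATG16L1*. Of these *NPC1* also encodes a lysosomal membrane protein. In the first pair the order was reversed for *CTSA* and *NPC2*, which were lowest there, and for *NPC1* and *UVRAG*, which were highest there. Each pair joins 1 library of each label. The pairs were singled out on the principal components, which the members enter with all other genes, and their differences were not tested. What set these libraries apart cannot be told from the labels.

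**Figure D4:**
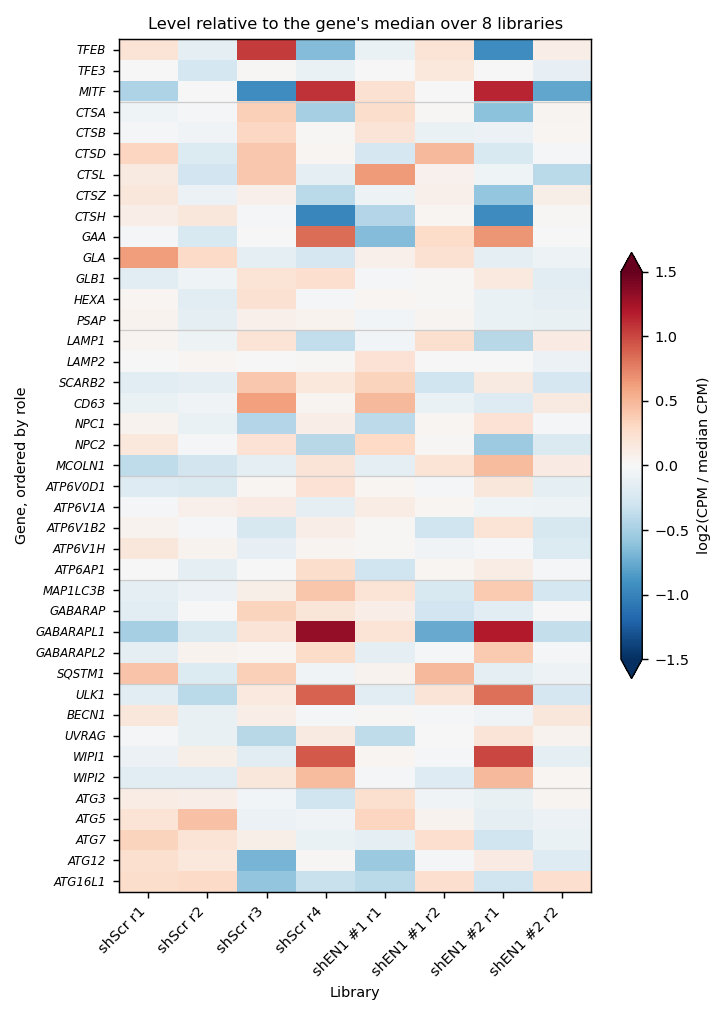
Colour gives log2 of a library's CPM over the gene's median CPM in 8 libraries, for 41 tested genes (rows, grouped by role) and 8 libraries (columns). *MITF*, *GAA*, *GABARAPL1*, *ULK1* and *WIPI1* are red in shScr r4 and shEN1 #2 r1, where *TFEB* and *CTSH* are blue, and *CD63*, *CTSL* and *SCARB2* are red in shScr r3 and shEN1 #1 r1.

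Leaving these libraries out did not bring a member past the threshold. Without shScr replicate 4 and shEN1 #2 replicate 1, 0 of 41 members had an adjusted p below 0.05, 14 were higher in shEN1 and the median log2 fold change was -0.037, and *GABARAPL1*, *ULK1* and *TFEB* had log2 fold changes of -0.11, 0.065 and -0.39. When shScr replicate 3 and shEN1 #1 replicate 1 were left out as well, 4 libraries remained and 21 of 41 members were higher. At an unadjusted p below 0.05 that fit called 5 of 41 members, *MCOLN1* (0.49), *ATG12* (-0.31), *ATG5* (-0.34), *ATP6V1B2* (-0.29) and *GLA* (-0.38, all log2 fold changes), beside 10.6% of all 14273 genes tested in it. None of the 5 had an adjusted p below 0.407 in this edgeR fit, and these libraries were left out after their values were seen.

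Each construct was also compared with shScr on its own, in a fit of 3 groups that shares the 4 shScr libraries and tested 15129 genes. For shEN1 #1 17 of 41 members had a higher and 24 a lower estimate, with a median log2 fold change of -0.017 (all tested genes -0.0091), and for shEN1 #2 17 were higher and 24 lower, with a median of -0.063 (all -0.0082). Neither construct had a member with an adjusted p below 0.05, where the share of all tested genes was 0.0% for each. At an unadjusted p below 0.05 there were 0 of 41 members for shEN1 #1 (0.674% of all tested genes) and 0 of 41 for shEN1 #2 (0.39%). The lowest estimates were *GABARAPL1* for shEN1 #1 (-0.58, 95% interval -1.97 to 0.82) and *TFEB* for shEN1 #2 (-0.58, 95% interval -1.71 to 0.55). The highest were *CTSL* for shEN1 #1 (0.33, 95% interval -0.19 to 0.85) and *MCOLN1* for shEN1 #2 (0.44, 95% interval -0.10 to 0.98).

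A wider list of 157 other lysosome and autophagy genes, of which 148 were tested, was also examined. It gave 0 genes with an adjusted p below 0.05 in edgeR, DESeq2 and limma-voom, and 0 with an unadjusted p below 0.05 in edgeR. Of the 148 tested genes 56 had a higher and 92 a lower estimate in shEN1, so that 37.8% were higher, compared with 48.9% of all tested genes. Their median log2 fold change was -0.027. By construct the counts were 57 higher and 91 lower for shEN1 #1 (median -0.068), and 79 higher and 69 lower for shEN1 #2 (median 0.011). Lower estimates were most frequent among the further acid hydrolases and cofactors, with 26 of 34, followed by 14 of 21 lysosomal membrane genes and 16 of 25 genes of the autophagy machinery. Among enzyme sorting genes, which direct hydrolases to the lysosome, 4 of 11 were lower. Counts by class are not given here with libraries left out. Among the member hydrolases the direction turned in such a fit, with 7 of 11 higher in 4 libraries. *ULK2*, the homologue of *ULK1*, had the largest estimate, 0.43 (SE 0.82, 95% interval -1.41 to 2.28) on the log2 scale. For *RRAGD* the values were 0.602, 0.485, 2.38 and 9.45 CPM in shScr, 2.07 and 0.441 CPM in shEN1 #1, and 13.7 and 0.369 CPM in shEN1 #2. *RRAGD*, a small GTPase that brings mTORC1 to the lysosome, was highest by far in shScr replicate 4 and shEN1 #2 replicate 1, and its log2 fold change was 0.37 (SE 1.24, 95% interval -2.44 to 3.17). *CTSF* measured 4.94, 3.61, 6.63 and 29.7 CPM in shScr, compared with 5.6 and 3.82 CPM in shEN1 #1 and 21.9 and 4.15 CPM in shEN1 #2. *CTSF*, a cysteine cathepsin, had the same 2 libraries highest, with a log2 fold change of -0.34 (SE 0.79, 95% interval -2.11 to 1.44). *DNASE2*, the acid DNase, had a log2 fold change of -0.29 (SE 0.14, 95% interval -0.60 to 0.018), the smallest unadjusted p in the list (0.0627), and an adjusted p of 1.00 in edgeR's fit.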

How the data were processed

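RNA-seq of SUIT2 was analysed in 8 libraries grouped by their labels: 4 shScr, 2 shEN1 #1 and 2 shEN1 #2. The values deposited are raw counts of reads for each gene, in whole numbers. Per the methods of the study, polyA RNA was sequenced in pairs, aligned to hg19 with HISAT2 and counted with featureCounts. The submitters' processing notes name the mouse build mm9 instead, and the gene identifiers in all 8 count tables are human. The annotation and strand setting are not given in the sources used here. Reads may therefore be shared where genes overlap or lie antisense. Versions of HISAT2 and featureCounts are not given in the sources used here.

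Of 25702 Entrez identifiers 23696 were matched to symbols through a RefSeq table, and the other 2006 took 0.214% to 0.257% of the counts. Positions (GRCh37) and lengths of the canonical transcript came from GENCODE's lifted annotation. In R 4.3.3, edgeR 4.0.16 filtered genes (filterByExpr, minimum count 10, 14333 kept), computed TMM factors (0.962 to 1.07) and tested shEN1 against shScr without a block (glmQLFit with robust estimation, glmQLFTest, Benjamini-Hochberg adjustment over all tested genes, threshold 0.05). A fit of 3 groups tested each construct. Intervals are 95% intervals of that fit. No label says that libraries of a group were separate cultures, so p-values measure the spread between these libraries.

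On simulated counts for the 4 against 4 comparison, edgeR recovered 110 of 200 genes changed 2-fold (14165 genes, 9 false calls) and 168 of 200 changed 4-fold (14145 genes, 10 false calls). The simulated libraries varied independently around a common mean, without pairs that lie apart as in the real data. The recovery is therefore not the power of the real comparison.

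The members and the lists of the wider pathway and of markers were chosen with earlier results of these data known. Test values are given for *EN1*, for 15 members named by role, for the 4 tested members with the largest fold change and for members with an unadjusted p below 0.05, and values in every library also for the 6 members with the largest ratio between libraries. Of the wider list the 4 genes with the largest fold change are named. *CTSH*, *CD63*, *ATG16L1* and genes called only in an alternative were named after their values were seen. Alternatives were scaling by DESeq2's size factors, by the upper quartile or by library size alone, DESeq2 1.42.0, limma-voom (limma 3.58.1), a fit without the filter, a minimum of 10 counts per library, the replicate number as a block and leaving out each library. Fits without 2 and without 4 libraries that lay far out on the principal components were added after the values were seen.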

Additional observations from a re-analysis of the deposited data

Results flagged for a closer look

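A library was singled out where its gap to the nearest other library of its label was large for the range of the 4 (Dixon's test at 95%). Over 102 groups of 4 libraries 6 met this, and chance alone gives about 5.1. *GAA* was at 30.8 CPM in shScr replicate 4, with the other shScr libraries between 14.6 and 17.1 CPM. *WIPI1* was at 13.2 CPM in shEN1 #2 replicate 1, with the other shEN1 libraries between 6.05 and 6.78 CPM. Both libraries lay apart on the first principal component. *CD63* was at 563 CPM in shScr replicate 3, with the others between 341 and 379 CPM, and the summed level of the 7 membrane proteins and lipid exporters was 1335 CPM in the same library, with the others between 1005 and 1050 CPM. *PSAP* was lowest in shScr replicate 2, at 371 CPM, with the others between 423 and 428 CPM. The TMM factor of shEN1 #2 replicate 1 was 1.07, with those of the other shEN1 libraries between 0.974 and 0.981. Their cause was not tested.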

How the results depend on the processing

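No lysosome or autophagy member had an adjusted p below 0.05 under any alternative, and the members' median log2 fold change lay between -0.065 and 0.001 throughout. The replicate numbers did not pair the libraries throughout. Correlations of deviations between same-numbered libraries were 0.009 and -0.381 for replicate 1, and 0.187 and 0.319 for replicate 2. The last 2 exceeded those of shScr replicate 2 with the other shEN1 libraries (0.13 and -0.437). Between differently numbered libraries the correlations ranged from -0.438 to 0.79. With a replicate block over 6 libraries 20 members were higher in shEN1, 1 gene in all had an adjusted p below 0.05, and the sign turned for *LAMP1* (-0.0077), *CTSB* (0.048), *NPC1* (-0.0075), *MAP1LC3B* (0.13) and *GABARAPL1* (0.41). *GLA* (-0.43) alone of the members then had an unadjusted p below 0.05, among 278 genes of 14747. With 4 libraries 21 members were higher and the sign turned for *TFEB* (0.11), *LAMP2* (-0.060), *CTSD* (0.16), *CTSL* (-0.088), *SQSTM1* (0.083) and *BECN1* (0.039). With no filter *BECN1* was at 0.0031, and *NEU1* had an unadjusted p of 0.035 and an adjusted p of 1.00 in edgeR's fit, on counts of 0 to 7.

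Over all genes the count with an adjusted p below 0.05 was 2 with DESeq2, 1 with 6 libraries, 1 with 4 libraries, and 0 to 1 when single libraries were left out (1 without shScr replicate 4). *VAMP7*, a vesicle fusion gene of late endosomes in a pseudoautosomal region and no member, was called in each of these, and the second gene of DESeq2 has no symbol here. For shEN1 #1 the count was 4 with DESeq2, 1 with only the 6 libraries compared, and 0 to 1 with single libraries left out, and for shEN1 #2 it was 0 to 1. Leaving out a library of a construct leaves it 1 library, assumed to vary like the other groups, and *EIF3CL* (a near-identical copy of *EIF3C*) for shEN1 #1 and *PNRC2* for shEN1 #2 were called in such fits. None was a member. Without shScr replicate 4, *NPC2* (-0.49) and *MCOLN1* (0.57) had an unadjusted p below 0.05 for shEN1 #2.

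Leaving out 1 library at a time moved the log2 fold change across 0 for *ATG5* (-0.19 to 0.025), *ATP6V0D1* (-0.014 to 0.14), *BECN1* (-0.058 to 0.040), *CTSB* (-0.12 to 0.033), *CTSL* (-0.17 to 0.19), *GABARAPL1* (-0.63 to 0.41), *LAMP1* (-0.066 to 0.14), *LAMP2* (-0.045 to 0.059), *MAP1LC3B* (-0.16 to 0.10), *NPC1* (-0.047 to 0.16), *SQSTM1* (-0.21 to 0.049), *TFEB* (-0.58 to 0.033) and *ULK1* (-0.26 to 0.34). The sign held for *TFE3* (0.036 to 0.14), *CTSD* (-0.33 to -0.045), *MCOLN1* (0.20 to 0.44), *ATG7* (-0.32 to -0.13) and *GABARAP* (-0.26 to -0.092), the last of which was -0.0058 with the replicate block. The cause of these turns was not tested. *NEU1*, *MITF* and *TFEB* had the lowest mean levels of the members.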
